A study of Mus musculus with 32 samples.

Results

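Mast cells and basophils are granule-bearing cells of the blood lineage that carry the high-affinity receptor for immunoglobulin E (FceRI), and 8 genes that mark them and their precursors were followed here in sorted mouse progenitors: Ms4a2, Fcer1a, Cpa3, Cma1, Mcpt8, Prss34, Hdc and Gata2. They were chosen by gene symbol, and Ms4a2 was picked because its level was lower in dosed adults than in untreated wild-type adults. Of the 8 genes, 7 had a row among the 27728 genes of the count table, and Prss34, a serine protease gene of basophils, was not analysed here. The 7 were counted in all 32 libraries.

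The study asked how much of the splicing factor U2af1 blood progenitors need. Cells were sorted as negative for lineage markers, positive for cKit and negative for Sca1. Fetal liver of the embryonic stage E14.5 gave 15 libraries, none from a treated animal. They came from U2af1(flox/flox) embryos with no Cre (flox control, n = 3), Vav1-Cre/U2af1(wt/flox) embryos (heterozygous deletion, n = 3), Vav1-Cre/U2af1(flox/flox) embryos (homozygous deletion, n = 3), Vav1-Cre embryos with no U2af1 allele named (n = 2), and Vav1-Cre/U2af1(wt/S34F) embryos, which carry a mutant allele (n = 4). Vav1-Cre cuts floxed sequence in blood cells. Adult bone marrow gave 17 libraries, and every adult mouse carried Mx1-Cre, rTA and tgU2AF1(WT), a transgene for wild-type U2AF1 that doxycycline turns on. Mice that were U2af1(flox/S34F) received polyinosinic-polycytidylic acid (pIpC), which turns on Mx1-Cre, and were fed doxycycline chow, in 4 libraries at 10000 ppm, in 6 at 2500 ppm and in 4 at 1250 ppm. Mice that were U2af1(wt/wt) received nothing (untreated wild type, n = 3). No group was dosed wild type, so genotype, pIpC and doxycycline cannot be told apart between dosed and untreated adults. The labels do not say whether libraries of 1 group came from separate animals, so p-values measure the spread between these libraries.

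FceRI is built from an alpha chain (Fcer1a), which binds immunoglobulin E, a beta chain (Ms4a2), which amplifies the signal, and gamma chains. When antigen links the bound antibody, Lyn and Syk pass the signal on and the cell empties its granules of histamine and proteases. Hdc makes histamine. Cpa3 is a carboxypeptidase of mast cell granules that progenitors of the lineage also express, Cma1 is a chymase of connective tissue mast cells, and Mcpt8 is a granule protease of basophils. Gata2 is a transcription factor of blood stem cells and of the mast cell and basophil lineage that binds GATA motifs. In the files' annotation (GRCm38) the genes are protein-coding and lie at chr19:11615523-11623719 (Ms4a2), chr1:173221284-173227214 (Fcer1a), chr3:20215620-20242181 (Cpa3), chr14:55941451-55944675 (Cma1), chr14:56082166-56085273 (Mcpt8), chr2:126593667-126619299 (Hdc) and chr6:88193891-88207032 (Gata2), on the minus strand except Gata2. Mcpt8 and Cma1 belong to 1 cluster of similar proteases on chromosome 14, where reads could be split between copies, and Cpa3 and Mcpt8 each overlap a microRNA gene, Mir7007 and Mir6949.

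The promoters of 4 members are shown because Ms4a2 and Fcer1a encode the receptor chains, Cpa3 correlated with Ms4a2 over the dosed adults and Mcpt8 had the largest fitted rise among the members in the fetal deletion. Each is the coding strand from 250 bases before to 50 bases after the start of the gene in RefSeq (GRCm38.p6), 5′ to 3′. Capitals mark the GATA motif AGATAA, searched on both strands, where it reads TTATCT on the minus strand.
Ms4a2 (chr19:11623670-11623969, minus strand): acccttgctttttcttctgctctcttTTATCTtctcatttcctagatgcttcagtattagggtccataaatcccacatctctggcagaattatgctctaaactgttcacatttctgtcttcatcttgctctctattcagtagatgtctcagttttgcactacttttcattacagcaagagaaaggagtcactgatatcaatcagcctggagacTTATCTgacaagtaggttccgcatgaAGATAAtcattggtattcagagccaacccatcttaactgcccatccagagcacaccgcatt
Fcer1a (chr1:173227180-173227479, minus strand): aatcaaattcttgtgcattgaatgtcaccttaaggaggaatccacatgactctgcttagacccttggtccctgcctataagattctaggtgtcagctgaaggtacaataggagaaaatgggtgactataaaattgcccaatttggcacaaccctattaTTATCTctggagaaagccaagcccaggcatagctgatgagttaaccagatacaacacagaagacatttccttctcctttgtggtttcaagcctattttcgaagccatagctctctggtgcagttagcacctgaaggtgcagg
Cpa3 (chr3:20242132-20242431, minus strand): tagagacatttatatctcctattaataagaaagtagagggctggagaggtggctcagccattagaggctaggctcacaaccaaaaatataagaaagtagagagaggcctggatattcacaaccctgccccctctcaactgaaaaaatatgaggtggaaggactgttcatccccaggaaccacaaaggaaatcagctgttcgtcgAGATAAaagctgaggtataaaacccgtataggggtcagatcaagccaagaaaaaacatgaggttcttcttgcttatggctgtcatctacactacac
Mcpt8 (chr14:56085148-56085447, minus strand): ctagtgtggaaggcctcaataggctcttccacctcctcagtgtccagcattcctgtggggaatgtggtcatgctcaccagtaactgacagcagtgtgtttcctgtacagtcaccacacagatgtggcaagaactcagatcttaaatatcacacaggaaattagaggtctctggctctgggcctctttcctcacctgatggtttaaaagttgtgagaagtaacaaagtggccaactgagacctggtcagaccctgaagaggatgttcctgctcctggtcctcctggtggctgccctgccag
Ms4a2 held AGATAA 3 times, at bases -224 to -219, -37 to -32 and -11 to -6 from the start. Fcer1a held it once, at -92 to -87, and Cpa3 once, at -46 to -41. Mcpt8, Cma1, Hdc and both Gata2 windows held none, and Prss34 held it once, at -31 to -26. Over all RefSeq windows of this length, 3672 of 32851 (11.2%) held AGATAA. The related motif TGATAA was in none of the 9 member windows and in 2974 of all windows (9.05%). A match is a description of the letters and not a bound site.

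Total counts ran from 26588099 to 71251200 per library. Levels are CPM, the counts of a gene scaled to the library's total, after 1 TMM scaling (trimmed means of log ratios) over all 32 libraries. Kit, the gene of the sorted receptor, lay between 231 and 789 CPM in every library. 3 libraries that stood apart from their group were followed through the comparisons. Flox control replicate 3 had less hepatocyte RNA than the other flox controls (97.9 CPM summed over 8 marker genes, against 386 and 605) and more Prg2, a granule protein of eosinophils that mast cells and basophils also carry (1046 CPM against 327 and 363). Untreated wild-type replicate 3 had more erythroid marker RNA (1384 CPM summed over 6 genes, against 360 and 383). 10000 ppm replicate 4 had less neutrophil RNA than the others of its dose (16312 CPM summed over 6 genes, against 41557 to 63790), more erythroid RNA (1677 CPM against 681 to 823) and more Gata2 (257 CPM against 90.3 to 140). Values without these 3 libraries stand beside the comparisons. Other libraries stood apart too. Erythroid marker RNA summed to 1240 CPM in 2500 ppm replicate 4, against 197 to 562 in the others of its dose. In heterozygous replicate 3 it summed to 869 CPM, against 423 and 436. Since these are bulk libraries, fewer cells of a type and less RNA per cell cannot be told apart.

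Each member had its own order of levels over the 9 groups. Ms4a2 was highest in the homozygous deletion (42.3 ± 12.0 CPM, SD, n = 3), followed by untreated wild-type adults (25.7 ± 2.83, n = 3), and lowest in the 1250 ppm adults (8.50 ± 2.80, n = 4). Its other fetal groups lay between 17 and 22.7 CPM, and neighbours below untreated wild type did not differ beyond their SD. Fcer1a averaged 11.4 ± 2.20 CPM in untreated adults (n = 3) and 2.95 to 5.90 in the dosed groups, but the highest fetal group, the homozygous deletion, averaged 0.556 ± 0.422 (n = 3), and 1 S34F library had 0 counts. Hdc stayed within a 2.74-fold range of group means, from 609 ± 95.8 CPM in the homozygous deletion (n = 3) to 222 ± 34.8 at 1250 ppm (n = 4). Gata2 spanned 5.37-fold, with the mean of every fetal group (220 to 513 CPM) above that of every adult group (95.4 to 147 CPM). Single libraries overlapped, as 10000 ppm replicate 4 (257 CPM) lay above all S34F libraries (201 to 254 CPM). Cpa3 was highest in the Vav1-Cre embryos (86.5 ± 23.2 CPM, n = 2) and lowest at 1250 ppm (27 ± 14.1, n = 4), a 3.21-fold range. Per kilobase of exon, which allows genes to be compared, untreated wild-type adults held most Hdc (45.2 CPM per kb), then Cpa3 (39.8), Mcpt8 (38.3), Gata2 (22.8), Fcer1a (11.4), Ms4a2 (9.12) and Cma1 (1.66).

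**Figure D1:**
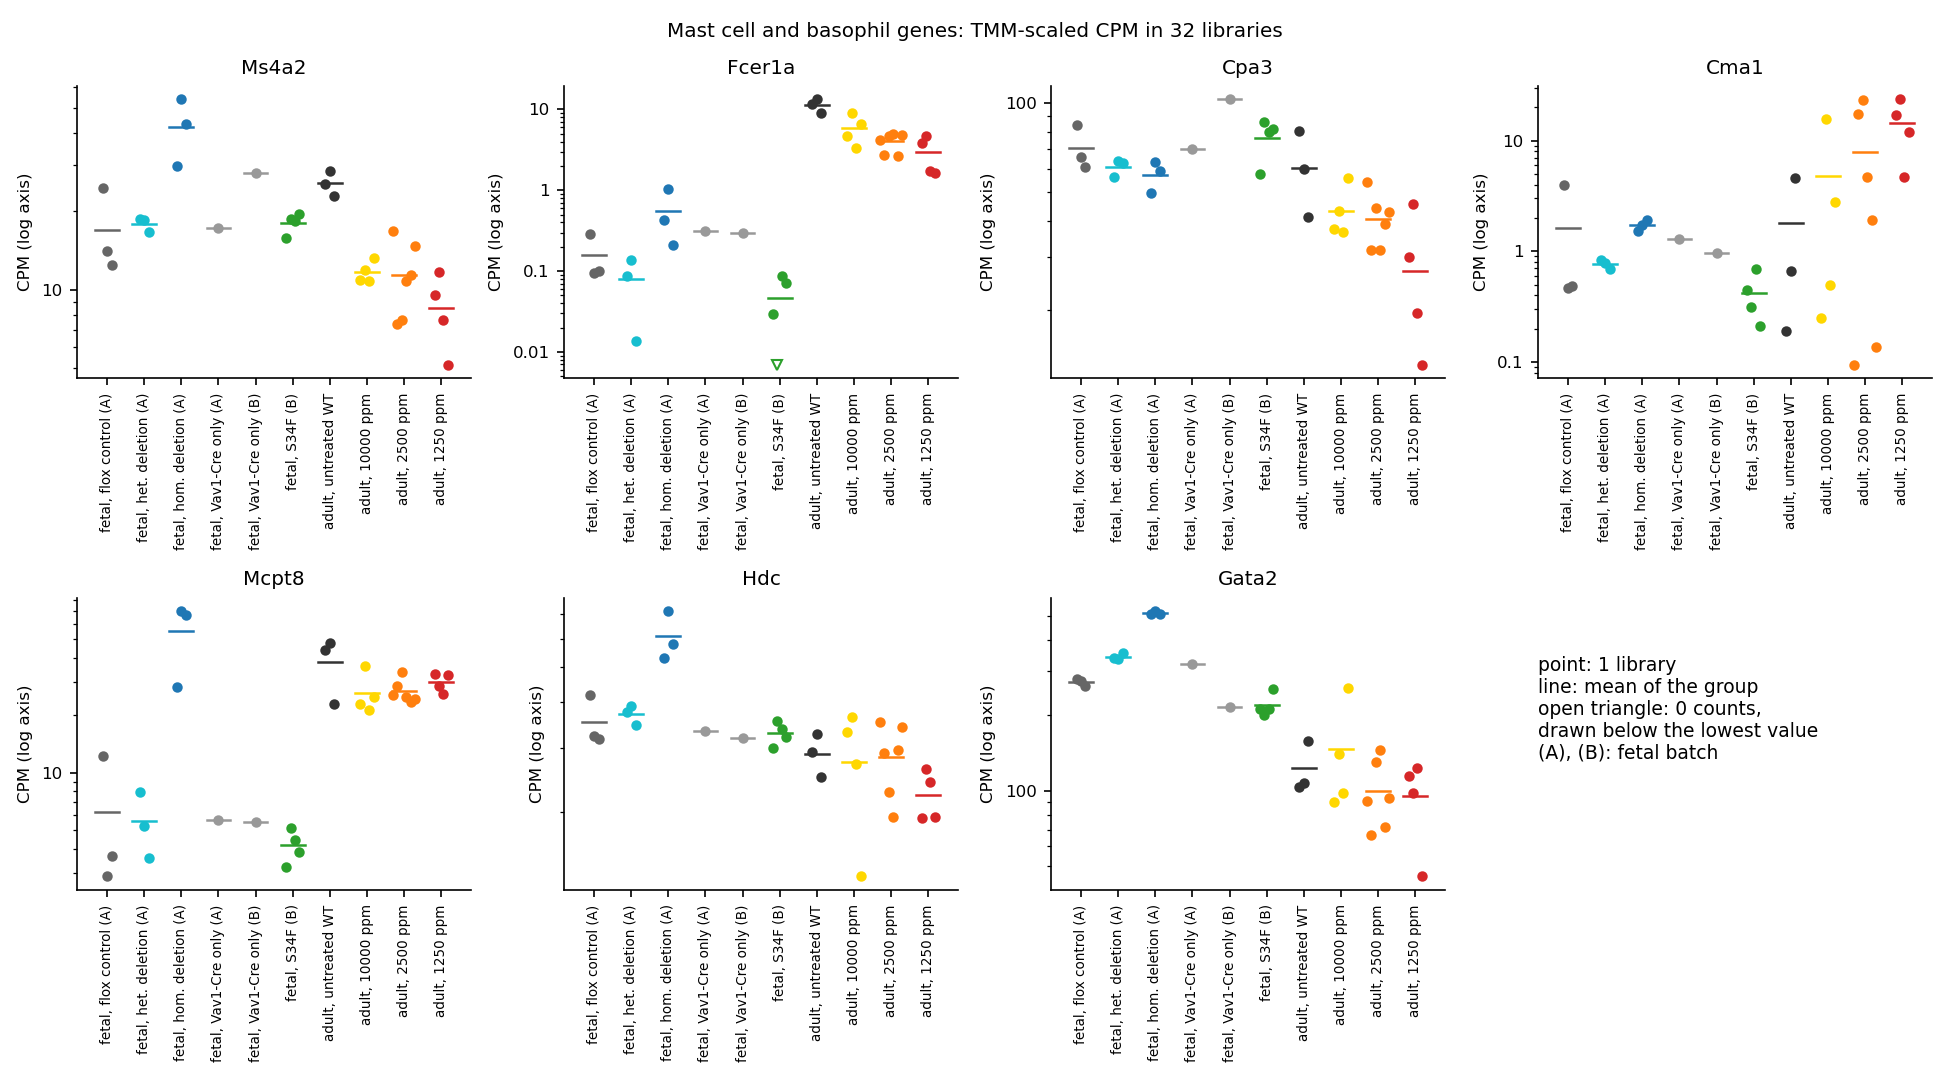
Levels of the 7 members in all 32 libraries, in TMM-scaled CPM on a log axis. Points are libraries, lines are group means and the open triangle is a library with 0 counts; Vav1-Cre embryos are split by batch. Ms4a2, Mcpt8, Hdc and Gata2 have their highest group mean in the homozygous deletion, where Mcpt8 (28.0 to 70.5 CPM) overlaps with every adult group. Fcer1a is at least 1.62 CPM in every adult library and at most 1.03 in every fetal one. Cma1 spreads from 0.0939 to 23.1 CPM within the 2500 ppm group.

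Loss of both U2af1 alleles went with more RNA of Mcpt8, Ms4a2, Gata2 and Hdc in fetal progenitors, while Fcer1a, Cpa3 and Cma1 were not called. The 4 genes were called higher and none was called lower, of 7 members tested (edgeR quasi-likelihood test within batch A, Benjamini-Hochberg adjusted p under 0.05). Of all 12678 genes tested, 41.0% were called, 18.5% higher and 22.4% lower. The median log2 fold change was 0.90 over the members and -0.02 over all genes tested.

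Mcpt8, the basophil protease, had the largest fitted change of the called members. Its level was 12.2, 2.87 and 3.67 CPM in flox control replicates 3, 4 and 5 and 7.94, 5.26 and 3.57 CPM in heterozygous libraries, and 28.0, 70.5 and 67.3 CPM in homozygous deletion replicates 2, 3 and 4. The lowest homozygous library was above the highest library of both other groups. The log2 fold change against the flox control was 3.12 ± 0.54 (SE, edgeR adjusted p = 0.00118), and against the heterozygous deletion 3.30 ± 0.54 (edgeR adjusted p = 0.000815). Without flox control replicate 3 the first was 4.07 (edgeR adjusted p = 3.47e-05).

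Ms4a2, the beta chain of the receptor, lay at 24.5, 14.1 and 12.4 CPM in the flox controls, 18.7, 18.5 and 16.6 in heterozygous embryos and 29.9, 53.9 and 43.2 in homozygous ones. The homozygous libraries did not overlap those of the other groups. The log2 fold change was 1.30 ± 0.25 against the flox control (edgeR adjusted p = 0.00221; 1.67 without flox control replicate 3, edgeR adjusted p = 6.36e-05) and 1.22 ± 0.25 against the heterozygous deletion (edgeR adjusted p = 0.00287). The alpha chain Fcer1a was near the limit of detection, with 18, 4 and 6 counts in the flox controls, 5, 9 and 1 in the heterozygous and 20, 58 and 7 in the homozygous deletion. Its log2 fold change of 1.76 ± 0.72 against the flox control did not pass (edgeR adjusted p = 0.0740), but passed without flox control replicate 3 (2.50, edgeR adjusted p = 0.0329) and without homozygous replicate 4 (2.11, edgeR adjusted p = 0.0462). Against the heterozygous deletion it was 2.80 ± 0.77 (edgeR adjusted p = 0.0138), a call that was lost without heterozygous replicate 5 (edgeR adjusted p = 0.0524) or homozygous replicate 3 (edgeR adjusted p = 0.0839).

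Hdc, the histamine-forming enzyme, lay at 420, 324 and 317 CPM in the flox controls, 376, 390 and 347 in the heterozygous and 531, 716 and 581 in the homozygous deletion, with no overlap of the last. Its log2 fold change was 0.77 ± 0.12 (edgeR adjusted p = 0.00069). Gata2 lay at 280, 274 and 261 CPM in the flox controls, 339, 336 and 353 in the heterozygous and 507, 522 and 509 in the homozygous deletion, so that the 3 groups formed 3 separate steps. The homozygous step against the flox control was 0.90 ± 0.053 on the log2 scale (edgeR adjusted p = 2.09e-06). Without flox control replicate 3, the changes of Hdc and Gata2 were 0.92 and 0.93, both called.

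Neither granule protease of mast cells was called, and for Cma1 this rested on 1 library. Cpa3 lay at 84.1, 65.8 and 60.8 CPM in the flox controls and 49.5, 62.9 and 59.0 in the homozygous deletion, with overlap (log2 fold change -0.31 ± 0.13, edgeR adjusted p = 0.0687). It was called lower without flox control replicate 5 (-0.41, edgeR adjusted p = 0.0337). Cma1 lay at 3.95, 0.470 and 0.488 CPM in the flox controls and 1.51, 1.73 and 1.93 in the homozygous deletion (log2 fold change 0.05 ± 0.66, edgeR adjusted p = 0.964). Flox control replicate 3 held 250 counts of Cma1, against 20 and 29 in replicates 4 and 5, and without it Cma1 was called higher, by 1.83 on the log2 scale (edgeR adjusted p = 0.000811). With that library left out, 6 of the 7 members were called higher. Over the fits that left out 1 library, 3994 to 5589 of all genes were called, against 5194 in the full fit.

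**Figure D2:**
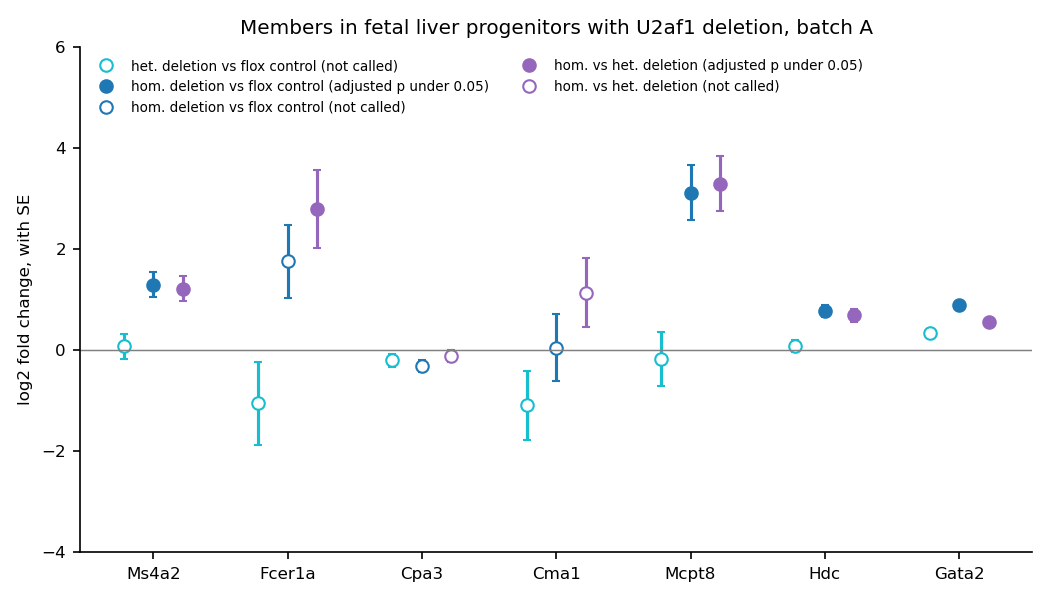
Fitted log2 fold change of each member, with its SE as a bar, for the heterozygous and homozygous deletion against the flox control and against each other (3 libraries a group, batch A). Filled points passed an edgeR adjusted p under 0.05. Mcpt8, Ms4a2, Hdc and Gata2 are filled in both homozygous comparisons, and no point is filled for the heterozygous deletion.

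Loss of 1 allele alone called none of the 7 members (edgeR), with 1 of them, Gata2, at an unadjusted p under 0.05 and called by DESeq2. Of all genes, 0.0316% were called. Gata2 was higher by 0.34 ± 0.053 on the log2 scale (edgeR adjusted p = 0.108), without overlap between the groups. It was called with DESeq2 (adjusted p = 1.73e-06), with no filter on low counts (edgeR adjusted p = 0.00417), without flox control replicate 3 (edgeR adjusted p = 0.0121) and without heterozygous replicate 3 (edgeR adjusted p = 0.0439), and over all alternatives its adjusted p ran up to 0.895. The flox control carries no Cre. The single Vav1-Cre library of the same batch had 321 CPM of Gata2, above all 3 flox controls and below all 3 heterozygous libraries. For the other members that library lay at 17.3 CPM (Ms4a2), 5.68 CPM (Mcpt8), 333 CPM (Hdc) and 70.1 CPM (Cpa3).

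Between the 2 deletions, 5 of 7 members were called higher in the homozygous one and none lower (Mcpt8, Fcer1a, Ms4a2, Hdc and Gata2), against 42.3% of all genes called, 19.8% higher and 22.4% lower. The log2 differences of Hdc and Gata2 were 0.69 ± 0.12 and 0.56 ± 0.053 (edgeR adjusted p = 0.00118 and 3.99e-05). Cma1 did not overlap between these groups but was not called (1.14 ± 0.68, edgeR adjusted p = 0.206). This comparison and the one against the flox control share the homozygous libraries.

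Marker RNA of other cell types moved with the homozygous deletion. All 8 hepatocyte markers, 4 of 4 B cell markers, 6 of 6 megakaryocyte markers, 5 of 6 erythroid and 6 of 7 macrophage markers were called lower than in the flox control, and 5 of 6 neutrophil markers were called higher. Summed hepatocyte RNA was 97.9 to 605 CPM in the flox controls, 48.1 to 116 in the heterozygous and 10.9 to 29.3 in the homozygous deletion, so the groups of the homozygous comparisons did not overlap. Summed neutrophil RNA overlapped, at 14326 to 21135 CPM in the flox controls and 15174 to 17456 in the homozygous deletion. The listed eosinophil markers Prg2 and Ccr3 summed to 328 to 1046 CPM in the flox controls. In the homozygous deletion they summed to 1301 to 1815 CPM, without overlap. Ccr3 was at 0.168 to 0.447 and 0.324 to 0.693 CPM, so the sums were almost all Prg2. Of 5 stem cell markers, 2 were called higher and 1 lower. Pax5, which defines B cells, averaged 19.5 ± 12.2 CPM in the flox controls and 0.0463 ± 0.0127 in the homozygous deletion (n = 3 each). With the hepatocyte markers as a covariate, the rises of Ms4a2 (0.20), Mcpt8 (1.06) and Hdc (0.29 on the log2 scale) were no longer called (edgeR adjusted p = 0.806, 0.486 and 0.440), Gata2 was still called higher (0.79, edgeR adjusted p = 0.00291) and Cpa3 was called lower (-0.97, edgeR adjusted p = 0.00745). Against the heterozygous deletion the same covariate left Mcpt8 (2.01), Hdc (0.44) and Gata2 (0.50) called higher (edgeR adjusted p = 0.0295, 0.0347 and 0.000816), Cpa3 (-0.45) called lower (edgeR adjusted p = 0.00970), and Ms4a2 (0.62) and Fcer1a (2.28) not called (edgeR adjusted p = 0.101 and 0.136). Since summed hepatocyte RNA did not overlap between the groups of either comparison, these fits cannot tell the covariate and the deletion apart. No conclusion is drawn from the calls they lost, kept or gained. The part of the other cell types in the result was not tested.

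Other genes of the 2 lineages were called in both directions in the homozygous deletion, where 41.0% of all genes were called. Of 10 surface and cytokine genes tested, 6 were called higher and 2 lower, with a median log2 fold change of 1.22. One member, Ms4a3, called higher, is also on the neutrophil list. Il13 and Il4, cytokines that basophils and mast cells release, rose by 2.63 ± 0.53 and 1.46 ± 0.35 on the log2 scale (edgeR adjusted p = 0.00282 and 0.00744). Il4 lay at 0.933, 0.635 and 0.420 CPM in the flox controls and 1.45, 2.41 and 1.69 in the homozygous deletion. Cd200r3, a receptor found on mast cells and basophils, rose from 4.52 ± 1.62 to 15.1 ± 6.03 CPM (n = 3 each, log2 fold change 1.73 ± 0.32). Enpp3, an ectoenzyme used to recognise activated basophils, was called lower (-2.91 ± 0.85), from 0.389 ± 0.270 to 0.0465 ± 0.0436 CPM (n = 3 each). Kit, Il1rl1, Il6 and Prg2 were singled out after their values were seen. Kit, the receptor for stem cell factor that mast cells need and the sort selected on, fell from 539 ± 47.6 to 283 ± 47.1 CPM (n = 3 each, edgeR adjusted p = 8.11e-05). Il1rl1, the receptor for interleukin 33, rose from 33.2 ± 1.70 to 75.1 ± 14.3 CPM (n = 3 each, edgeR adjusted p = 0.000115). Prg2 rose from 579 ± 405 to 1474 ± 296 CPM (n = 3 each, edgeR adjusted p = 0.0145). Il6 lay at 4.85, 1.03 and 1.08 CPM in the flox controls and 4.65, 5.77 and 6.75 in the homozygous deletion, with overlap at replicate 3 (edgeR adjusted p = 0.0627). Without that library Il6 was called higher (2.43, edgeR adjusted p = 3.10e-05).

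Among 9 granule and mediator genes tested, 4 were called higher and 3 lower. Alox5, which starts leukotriene synthesis, rose by 1.45 ± 0.20 on the log2 scale, and Hpgds, which forms prostaglandin D2 in mast cells, was lower (-1.94 ± 0.29). Gzmb (0.95 ± 0.24) and Ctsg (0.93 ± 0.16), both serine proteases, rose. Ctsg is also a granule protein of neutrophil precursors. The share called was near that of all genes for the genes of the FceRI signal (5 of 11) and for the lineage factors (6 of 14). Of the 11, 2 were called higher and 3 lower: the adaptors Lat (0.87 ± 0.09) and Lcp2 (0.58 ± 0.14) were higher, and the phospholipase Plcg1 (-1.16 ± 0.07), the kinase Btk (-0.41 ± 0.07) and the kinase Fyn (-0.35 ± 0.09) were lower. Lyn and Syk were not called. Of 14 partners of Gata2 and other lineage factors, 4 were called higher and 2 lower. They included Cebpa, a myeloid factor that works with Gata2 in basophil commitment (0.54 ± 0.12), Fli1 (0.46 ± 0.08), Stat5b (-0.45 ± 0.06) and Stat5a (-0.41 ± 0.10), while Gata1 and Mitf, factors of mast cells, were not called (-0.18 ± 0.19 and -0.02 ± 0.15). Without flox control replicate 3, Syk was also called higher (0.19) and Gata1 lower (-0.42). The counts called higher and lower were then 7 and 2 of 10 surface and cytokine genes and 4 and 4 of 9 granule and mediator genes. For signalling genes they were 3 and 3 of 11, and for factors 5 and 5 of 14. Fits that left out 1 library called 3994 to 5589 of all genes. Mast cell receptor genes Mrgprb1 and Mrgprb2 and the tryptase Tpsab1 had 0 counts in all 15 fetal libraries, which allows up to 3 counts in each. In the heterozygous deletion no gene of these 4 lists was called (edgeR). Against the heterozygous deletion, 7 of 10 surface and cytokine genes were called higher in the homozygous one and 1 lower, with 3 and 2 of 9 granule and mediator genes, 2 and 4 of 11 signalling genes and 4 and 3 of 14 factors.

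**Figure D3:**
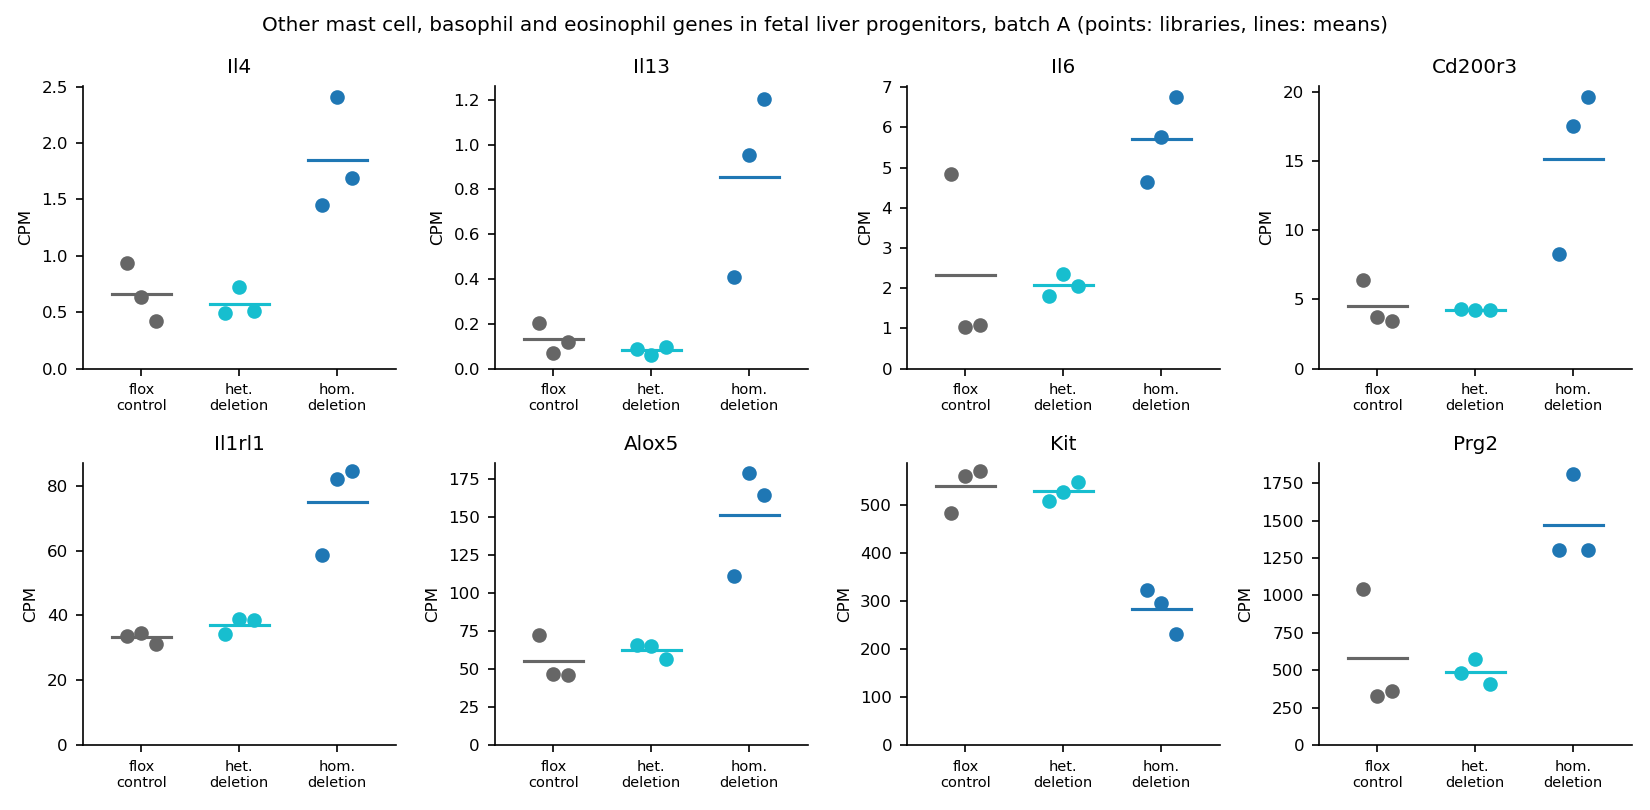
CPM of 8 genes of mast cells, basophils and eosinophils in the 9 batch A libraries, with group means as lines and every axis from 0. Il4, Il13, Cd200r3, Il1rl1, Alox5 and Prg2 are higher in all 3 homozygous libraries than in all flox controls, Kit is lower in all 3, and Il6 overlaps at 1 flox control.

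In the S34F embryos, Ms4a2, Cpa3, Mcpt8, Hdc and Gata2 stayed within 2-fold of the only control of the same batch in each library. Against that Vav1-Cre library, 0 of the 6 members with enough counts differed at least 2-fold one way in all 4 S34F libraries, compared with 155 of 11823 genes (1.31%). With 1 control library there is no test. Ms4a2 was 15.8, 18.6, 18.3 and 19.6 CPM in S34F replicates 1 to 4 and 28.1 CPM in the control, which put the ratios between 0.563 and 0.697. All 4 libraries were lower than this control, but not all were lower than the Vav1-Cre library of the other batch (17.3 CPM). Cpa3 had ratios of 0.558 to 0.838, Mcpt8 0.580 to 0.927, Hdc 0.937 to 1.12 and Gata2 0.931 to 1.17. Cma1 ran from 0.220 to 0.721, and without S34F replicate 3 it was the 1 member at least 2-fold lower in every library. Fcer1a had 1, 0, 3 and 4 counts in the S34F libraries and 10 in the control.

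Between the control groups of the 2 stages, Fcer1a and Mcpt8 were lower and Gata2 higher in fetal liver than in adult marrow. These were 3 calls among 7 members (2 lower, 1 higher), against 59.0% of all genes called, 30.0% higher and 29.0% lower. Fcer1a lay at 0.284, 0.094 and 0.101 CPM in the flox controls and at 11.8, 13.3 and 8.99 in untreated wild type (log2 fold change -6.08 ± 0.43, edgeR adjusted p = 0.000116). Its partner chain Ms4a2 overlapped between them, at 12.4 to 24.5 and 22.9 to 28.6 CPM (-0.59 ± 0.25, edgeR adjusted p = 0.0812). Mcpt8 was 2.87 to 12.2 CPM in the embryos and 43.9, 47.8 and 22.9 CPM in the adults (-2.61 ± 0.58, edgeR adjusted p = 0.00785). Gata2 was 261 to 280 CPM in the embryos and 103, 107 and 158 in the adults (1.15 ± 0.16, edgeR adjusted p = 0.00118). Cpa3, Hdc and Cma1 were not called. Without flox control replicate 3, Ms4a2 was also called lower (-0.94, edgeR adjusted p = 0.00243), and Fcer1a, Mcpt8 and Gata2 differed by -6.81, -3.53 and 1.13 on the log2 scale, all called. Without untreated replicate 3 those 3 differed by -6.23, -2.87 and 1.36, all called, and Ms4a2 by -0.67 (edgeR adjusted p = 0.0864). Of the other genes, Hpgds (3.02) and Cd200r3 (2.66 on the log2 scale) were among those called higher in the embryos and Ms4a3 (-2.20) and Ctsg (-1.87) among those called lower. The counts called higher and lower were 2 and 4 of 9 granule and mediator genes, 2 and 2 of 8 surface and cytokine genes, 3 and 4 of 11 signalling genes and 3 and 4 of 14 factors. Markers of other cell types differed as well: 6 of 6 neutrophil markers were called lower in the embryos (median log2 difference -2.92), and 7 of 8 hepatocyte markers (11.02), 4 of 4 B cell markers (5.06) and 6 of 7 macrophage markers (4.35) were called higher. Their part in the result was not tested. The flox controls were U2af1(flox/flox) with no Cre, and the untreated adults were U2af1(wt/wt) with Mx1-Cre, rTA and tgU2AF1(WT). Stage, organ, U2af1 alleles, Cre and transgenes differ together here and cannot be told apart.

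In the dosed adults, Ms4a2 and Fcer1a were lower than in untreated wild type in every library. These values are given as a description, since the choice of members used this contrast. Ms4a2 lay at 25.5, 28.6 and 22.9 CPM in untreated wild type and at 10.8, 11.9, 10.8 and 13.2 CPM at 10000 ppm. At 2500 ppm its lowest, median and highest values were 7.35, 11.1 and 16.7 CPM, and at 1250 ppm the libraries held 9.52, 11.7, 7.62 and 5.14 CPM. The highest dosed library was below the lowest untreated one. The fitted log2 differences were -1.13 (10000 ppm), -1.17 (2500 ppm) and -1.58 (1250 ppm).

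Fcer1a showed the same separation, with 4.68, 8.91, 3.37 and 6.66 CPM at 10000 ppm, 2.68 to 4.97 CPM at 2500 ppm (median 4.42) and 3.80, 4.63, 1.75 and 1.62 CPM at 1250 ppm. The nearest libraries were 10000 ppm replicate 2 (8.91 CPM) and untreated replicate 3 (8.99 CPM). Its log2 differences were -0.94, -1.51 and -1.94 in the same order of doses. Cpa3 overlapped with untreated wild type (80.3, 59.7 and 41.0 CPM) at each dose, at 36.5 to 55.9, 31.8 to 53.9 and 13 to 45.4 CPM. Its differences were -0.47, -0.58 and -1.15 on the log2 scale. Mcpt8 (-0.53, -0.52 and -0.34), Hdc (-0.06, -0.03 and -0.37) and Gata2 (0.26, -0.31 and -0.36) overlapped with untreated wild type at each dose. Without untreated replicate 3, the differences in the same order of doses were -1.19, -1.25 and -1.67 for Ms4a2, -1.07, -1.66 and -2.10 for Fcer1a, -0.68, -0.80 and -1.39 for Cpa3, -0.79, -0.79 and -0.62 for Mcpt8, -0.15, -0.14 and -0.48 for Hdc and 0.50, -0.09 and -0.15 for Gata2. Without 10000 ppm replicate 4, that dose differed by -1.17 (Ms4a2), -0.99 (Fcer1a), -0.61 (Cpa3), -0.50 (Mcpt8), 0.18 (Hdc) and -0.14 (Gata2), so Hdc and Gata2 changed sign. Marker RNA of other cell types differed along with the receptor chains. Summed macrophage RNA was 353 to 456 CPM in untreated wild type and 92.5 to 349 CPM in the dosed libraries. Summed B cell RNA was 18.5 to 25.7 and 32.3 to 70.2 CPM, and neither sum overlapped. The eosinophil markers, mostly Prg2, summed to 453 to 632 CPM in untreated wild type. This sum was lower without overlap at 2500 ppm (75.5 to 305 CPM) and 1250 ppm (70.6 to 153 CPM), and overlapped at 10000 ppm (25.2 to 1220 CPM). The macrophage sum in untreated adults came mostly from 1 gene. Flox controls summed to only 91.0 to 101 CPM, although 6 of the 7 macrophage markers were called higher there and 1 lower. Their part in the result was not tested.

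Among the 3 doses, which were not used to choose the members, edgeR called no member and DESeq2 called Fcer1a in 2 of the 4 comparisons. For 10000 against 1250 ppm, 0 of 7 members passed (edgeR), 2 had an unadjusted p under 0.05 and DESeq2 called 1, against 18.1% of all genes called. Fcer1a averaged 5.90 ± 2.42 CPM at 10000 ppm and 2.95 ± 1.5 at 1250 ppm (n = 4 each, log2 fold change 0.995 ± 0.35, edgeR adjusted p = 0.0603), with overlap. It was called with DESeq2 (adjusted p = 0.0207), with genes of at least 50 mean counts (edgeR adjusted p = 0.0497), without 10000 ppm replicate 3 (edgeR adjusted p = 0.0284) and without 1250 ppm replicate 3 (edgeR adjusted p = 0.0311). Over all alternatives its adjusted p ran from 0.0207 to 0.211. Cpa3 differed by 0.68 ± 0.30 (edgeR adjusted p = 0.125), and without 1250 ppm replicate 3 by 1.07 (edgeR adjusted p = 0.0225). Hdc (0.31 ± 0.25) was called only without 10000 ppm replicate 4 (0.56, edgeR adjusted p = 0.0442), the library with the lowest Hdc of all, 133 CPM. Without that library Fcer1a differed by 0.96 (edgeR adjusted p = 0.0879) and Gata2 by 0.23 in place of 0.61 ± 0.34, neither called.

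For 2500 against 1250 ppm, 0 members were called by edgeR or DESeq2 and 0 had an unadjusted p under 0.05, against 1.91% of all genes. For 10000 against 2500 ppm, 0 members were called by edgeR or DESeq2 and 0 had an unadjusted p under 0.05, and 0% of all genes were called. A slope on log2 of the dose over the 14 dosed libraries called 0 members by edgeR and 1 by DESeq2, with 1 at an unadjusted p under 0.05 and 10.7% of all genes called. That member was Fcer1a, with a slope of 0.33 ± 0.12 per doubling of the dose (edgeR adjusted p = 0.0779, DESeq2 adjusted p = 0.0324). Without 10000 ppm replicate 3 its slope was 0.41 (edgeR adjusted p = 0.0377). Of the other mast cell and basophil genes, 10 granule and mediator genes were tested for 10000 against 1250 ppm. Alox5 (2.08 ± 0.56) and Slc18a2 (1.57 ± 0.30), which loads granules with amines, were called higher at 10000 ppm and Ctsg lower (-0.77 ± 0.18). Alox5 overlapped, at 157, 192, 40.8 and 20.5 CPM in 10000 ppm replicates 1 to 4 and 18.0 to 29.5 CPM at 1250 ppm. Prg2 in the same 10000 ppm replicates was 774, 1218, 159 and 24.3 CPM. Slc18a2 did not overlap, at 13.5 to 36.4 CPM and 3.94 to 10.5 CPM. Of the 10 surface and cytokine genes tested, Kit alone was called (0.44 ± 0.14). Of 14 lineage factors, Erg, Stat5b and Ikzf1 were called higher and Cebpa lower, and none of 11 receptor signalling genes was called (edgeR). Without 10000 ppm replicate 4, Kit (0.34) and Cebpa (-0.22) were not called (edgeR adjusted p = 0.0985 and 0.0596), while Cd63 (0.67) and the signalling genes Lyn (0.45), Syk (0.47) and Lcp2 (0.70) were called higher. Beside these, 5 of 6 megakaryocyte markers and 3 of 6 neutrophil markers were called higher at 10000 ppm. Summed megakaryocyte RNA was 91.9 to 294 CPM at 10000 ppm and 49.0 to 96.2 at 1250 ppm, and its part in the result was not tested.

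Cma1 had the widest range of any member among libraries of 1 dose, by the ratio of highest to lowest. It lay at 0.249, 15.8, 0.495 and 2.79 CPM at 10000 ppm, at 0.0939 to 23.1 CPM at 2500 ppm (median 3.31) and at 17.1, 23.6, 4.64 and 12.0 CPM at 1250 ppm. Untreated wild type held 0.189, 0.668 and 4.58 CPM. All 4 libraries at 1250 ppm were above all 3 untreated ones (4.64 CPM at the lowest, against 4.58 in untreated replicate 3) and the other doses overlapped with them. The log2 difference from untreated wild type was 1.40 at 10000 ppm, 2.11 at 2500 ppm and 2.99 at 1250 ppm. Without untreated replicate 3 it was 3.46, 4.15 and 5.03, and without 10000 ppm replicate 2 the value at 10000 ppm turned to -0.63. The difference between 10000 and 1250 ppm was -1.59 ± 1.39 (edgeR adjusted p = 0.457), and ran from -3.62 without 10000 ppm replicate 2 to -1.15 without replicate 3.

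Some other mast cell genes, named after their values were seen, varied with Cma1, but the other members did not follow it. Over the 17 adult libraries, Cma1 had r = -0.57 with Ms4a2, -0.46 with Hdc, -0.45 with Cpa3 and -0.27 with Fcer1a. With Mcpt8 and Gata2 it had r = 0.15 and 0.07. Among 12085 genes ranked by Pearson correlation of log2 CPM over the 17 adult libraries, the gene most like Cma1 was Tpsb2, a mast cell tryptase (r = 0.96), followed by Ctsl (0.90) and Abi3 (0.89). Tpsb2 lay at 13.7 CPM in 2500 ppm replicate 2 and 23.0 CPM in replicate 3, the libraries with 17.4 and 23.1 CPM of Cma1, and at 0.0376 and 0.0910 CPM in replicates 1 and 6, which held 0.0939 and 0.136 CPM of Cma1. Mrgprb1, a receptor gene of connective tissue mast cells, had counts in 9 of the 14 dosed libraries, up to 108, and in none of the 3 untreated ones, which allows up to 3 counts in each. It was counted only where Cma1 was at least 1.92 CPM. The 1250 ppm replicate 4, with 4.64 CPM of Cma1, had 0 counts of Mrgprb1. Mrgprb2 had counts in 9 and Tpsab1 in 7 of the 14 dosed libraries, up to 23 and 15 counts, and 1250 ppm replicate 1, with 17.1 CPM of Cma1, had 0 counts of Tpsab1. These limits cover counting error only.

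Pairs of members were then compared within the dosed adults. Correlations of log2 CPM between the 21 pairs of members were computed over the 14 dosed libraries, after the data had been seen, with permutation tests (100000 resamples, two-sided) and Benjamini-Hochberg adjustment over the 21 pairs. Ms4a2 and Cpa3 had r = 0.83 (permutation adjusted p = 0.00693) and rho = 0.81 (permutation adjusted p = 0.0181), with r = 0.63 without the 2 libraries farthest from the median of Ms4a2 and r = 0.77 for deviations from the dose means. Fcer1a and Cpa3 had r = 0.80 (permutation adjusted p = 0.00766) and rho = 0.63 (permutation adjusted p = 0.0982), with r = 0.48 without the 2 farthest libraries. Cma1 and Mcpt8 had r = 0.75 (permutation adjusted p = 0.0175) and rho = 0.75 (permutation adjusted p = 0.0306), with r = 0.85 without the 2 farthest libraries and 0.70 for deviations from the dose means. Ms4a2 and Cma1 had r = -0.62 (permutation adjusted p = 0.0665) and rho = -0.53 (permutation adjusted p = 0.198). Ms4a2 and Fcer1a had r = 0.67 (permutation adjusted p = 0.0394) and rho = 0.61 (permutation adjusted p = 0.0982), and Fcer1a and Gata2 had r = 0.67 (permutation adjusted p = 0.0394) and rho = 0.64 (permutation adjusted p = 0.0982). Fcer1a and Cma1 had r = -0.08 (permutation adjusted p = 0.870) and rho = -0.06 (permutation adjusted p = 0.886). Of the 21 pairs, 5 passed by r and 2 by rho, and without 10000 ppm replicate 4 those 5 had r between 0.63 and 0.82. Values were permuted across doses, and no share of other gene pairs was computed to set beside this count. Among all genes ranked over the 17 adult libraries, Cpa3 was 109th and Fcer1a 34th most correlated with Ms4a2. For Fcer1a, Cpa3 ranked 4 and Gata2 526, and for Cma1, Mcpt8 ranked 4668.

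**Figure D4:**
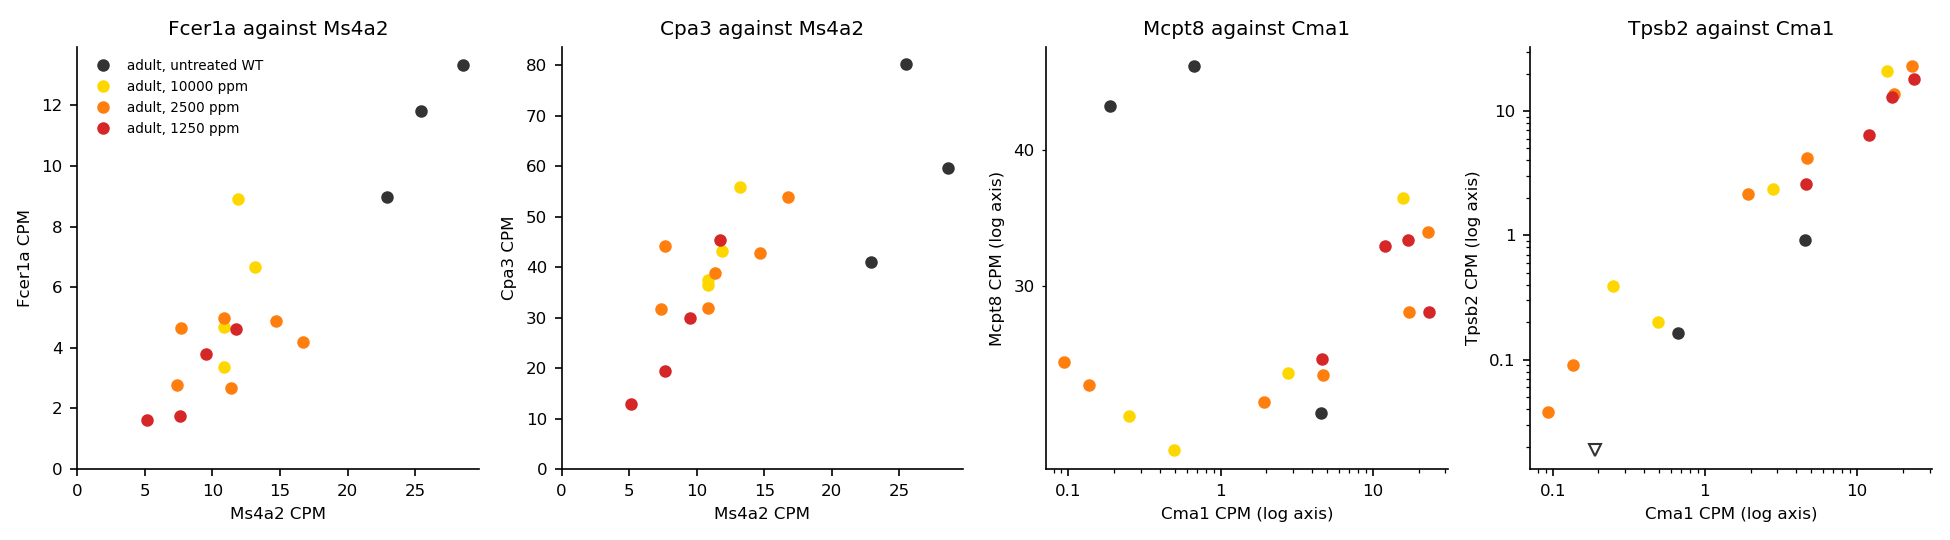
Pairs of genes over the 17 adult libraries, in CPM, with 1 point a library and colours for the groups; both axes start at 0 for Fcer1a and Cpa3 against Ms4a2, and are log axes for Mcpt8 and Tpsb2 against Cma1, where the open triangle is a library with 0 counts of Tpsb2. Untreated wild type lies apart from the dosed libraries in Ms4a2 (22.9 CPM or more), and Tpsb2 follows Cma1 over the whole range (r = 0.96 on log2 CPM).

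Over the 17 adult libraries the genes most like the other members were Gphn, Stxbp3 and Tbce for Ms4a2 (r = 0.91, 0.90 and 0.90), Tsg101 for Fcer1a (0.84), Itga2 for Cpa3 (0.90), S100a11 for Hdc (0.96) and Sdsl for Gata2 (0.92). Mcpt8 had no close match, with 0.70 for Gm20658. Over the 9 batch A embryos, Marveld1 was most like Ms4a2 (r = 0.998), Triobp most like Mcpt8 (0.997) and Rhof most like Gata2 (0.98). All of these libraries differ in group and depth, the adult ones include the untreated and dosed groups whose difference was used to choose Ms4a2, and the values carry no test.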

How the data were processed

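RNA of sorted progenitors was sequenced after removal of ribosomal RNA (KAPA RNA HyperPrep with RiboErase, per the labels' protocols). The authors deposited raw counts per Ensembl gene, and per the series' design text reads were aligned with HISAT2 to GRCm38. The counting tool, its annotation and its use of strand are not given in the sources used here, so reads of overlapping genes may be shared. Of 27728 genes, 27668 had a symbol. The design text warns of batch effects among fetal samples, so fetal deletions were compared within batch A, and the S34F libraries with the single Vav1-Cre library of batch B, as ratios without a test.

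Counts were fitted with edgeR 4.0.16 in R 4.3.3 (filterByExpr, TMM scaling, quasi-likelihood test), with 1 fit for the fetal batch A groups, 1 for all adults, 1 for the 14 dosed adults (trend) and 1 for the 2 control groups, and Benjamini-Hochberg adjustment over all genes tested (called: adjusted p under 0.05). Log2 CPM used a prior count of 2. Alternatives were DESeq2 1.42.0, RLE factors, other filters, a fold threshold, a replicate block, fits of the compared groups only, leaving out abundant genes or single libraries and, in embryos, hepatocyte markers or batch as a covariate. The other gene lists and member pairs without a library that stood apart were added after the data were seen. The tests were tested on simulated data. For 10000 against 1250 ppm, 78% of genes changed 4-fold and 52% of those changed 2-fold were recovered (13088 genes). Replicate numbers were not used to pair libraries. At 26588099 to 71251200 counts per library, 3 counts were taken as the limit for a gene at 0.

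The members and lists were chosen with earlier results of these data known. Named genes were all members and, per list and comparison, up to 4 called genes with the largest change, plus the genes most correlated with a member. Fyn, Lyn, Syk, Gata1, Mitf, Cd63, Pax5, Ccr3, Kit, Il1rl1, Il6, Prg2 and the genes set beside Cma1 were named after their values were seen.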

Additional observations from a re-analysis of the deposited data

How the results depend on the processing

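Of 1108 recomputed values of members under the alternatives, 1035 counted as unchanged, 25 gained a call, 12 lost one and 36 tested values changed sign. Tested values counted as unchanged if they kept direction and call. The described differences from untreated wild type counted as unchanged if they moved by less than the larger group SD of log2 CPM. Some of these changed sign and are given below. For the homozygous deletion against the flox control the 4 called members became 2 where calls also needed a 2-fold change and 2 with the hepatocyte covariate (Gata2 and Cpa3, in opposite directions), and 4 to 6 leaving out 1 library each. For the homozygous against the heterozygous deletion 5 became 3 with the fold threshold. For the heterozygous deletion 0 became 1 (Gata2) with DESeq2 or with no filter, and 0 to 1 leaving out 1 library. For 10000 against 1250 ppm 0 became 1 (Fcer1a) with DESeq2 or a mean of at least 50 counts, and 0 to 2 leaving out 1 library. The dose trend gave 1 with DESeq2 and 0 to 1 leaving out 1 library, and the S34F comparison 0 to 1.

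Of same-numbered pairs, 2 of 7 fetal ones (r of -0.26 to 0.12, median 0.0029) and 7 of 19 adult ones (-0.25 to 0.62, median 0.016) correlated above 0.1 in their deviations, which does not meet the bar of every pair above 0.1. The replicate block left 4 members called for homozygous embryos against flox controls, 4 against heterozygous ones (Fcer1a was lost, edgeR adjusted p = 0.0597), and 0 in the heterozygous deletion, each dose comparison and the trend. For the stage comparison no paired analysis was possible because its groups share 1 replicate number.

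Among tested values, signs changed in members that were not called. With the hepatocyte covariate Cma1 came to -2.58 against the flox control and -0.49 against the heterozygous deletion on the log2 scale, and in the heterozygous deletion Ms4a2 came to -0.42 and Hdc to -0.15. For 10000 against 2500 ppm, Mcpt8 turned positive with RLE factors (0.0098), DESeq2 (0.0102), a mean of at least 50 counts (0.0159), without genes over 1% of a library (0.010) and in a fit of these groups alone (0.0036). Leaving out 1 library, log2 changes spanned zero for Cma1 in the homozygous deletion (-0.38 to 1.83), in the heterozygous deletion for Cma1 (-1.52 to 0.68), Mcpt8 (-0.50 to 0.76) and Ms4a2 (-0.11 to 0.44), between deletions for Cpa3 (-0.18 to 0.00045), between stages for Cma1 (-1.90 to 1.92), for 2500 against 1250 ppm for Gata2 (-0.18 to 0.23), and for 10000 against 2500 ppm for Mcpt8 (-0.21 to 0.10), Hdc (-0.20 to 0.22), Cpa3 (-0.024 to 0.22) and Ms4a2 (-0.053 to 0.20). The described differences from untreated wild type also spanned zero at 10000 ppm for Cma1 (-0.63 to 3.46), Gata2 (-0.14 to 0.50) and Hdc (-0.23 to 0.18), and at 2500 ppm for Hdc (-0.14 to 0.06). The cause was not tested.

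Counts of all genes called also moved with the settings. With a 2-fold threshold 5194 became 1533 (homozygous against flox control), 5358 became 1439 (between deletions), 7231 became 2979 (stage), 2420 became 654 (10000 against 1250 ppm), 255 became 29 (2500 against 1250 ppm), 1376 became 87 (trend) and 4 became 1 (heterozygous). DESeq2 called 119 (heterozygous), 1106 (2500 against 1250 ppm), 50 (10000 against 2500 ppm) and 2227 (trend), and no filter gave 230, 0, 0 and 1533 for the heterozygous deletion, 2500 against 1250, 10000 against 2500 and 10000 against 1250 ppm. The hepatocyte covariate gave 1184 for the homozygous and 0 for the heterozygous deletion, and the replicate block 1184 (10000 against 1250 ppm), 33 (trend), 0 (2500 against 1250 ppm) and 0 (heterozygous). Fits of the compared groups alone called 1052 (10000 against 1250 ppm) and 0 (heterozygous), the dose rank 2069, and for 2500 against 1250 ppm RLE factors 153 and leaving out abundant genes 157. Leaving out 1 library gave 0 to 269 (heterozygous, highest without flox control replicate 3), 0 to 926 (2500 against 1250 ppm, highest without 2500 ppm replicate 4) and 87 to 2240 (trend, without 10000 ppm replicates 2 and 4).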
